A study of Mus musculus with 12 samples.

Results

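Cell adhesion genes of 3 families, the integrins, the classical and related cadherins, and the claudins, were described across 4 kinds of mouse germ cell samples. Members were the genes on the array whose symbol begins with Itga, Itgb, Cdh or Cldn followed by a digit, apart from Itga6, Itgb3, Cdh1, Cldn4 and Cldn6, and each was read from its probe set with the highest mean. This gave 63 genes of the 18193 with a probe set of their own, namely 10 integrin alpha chains, 8 integrin beta chains, 20 cadherins, 22 claudins and 3 genes that carry an integrin symbol because their proteins were found bound to an integrin tail. Of the 63, 37 passed the filter on low signal and were tested among 14197 genes. The symbol pattern leaves out the alpha chains named by letters, such as Itgav.

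Each group had 3 Affymetrix arrays of total RNA. Primordial germ cells (PGC), the embryonic precursors of sperm, came from the male genital ridge of BDF1 fetuses at E12.5. PGC-like cells (PGCLC) were differentiated in vitro and taken at day 6. Round spermatids (RS), the haploid cells that follow meiosis, were taken from testes of 3-week BDF1 mice, and their in vitro counterparts are the spermatid-like cells (SLC). All cells were collected by FACS with the gate unnamed, and the labels do not say which cells the in vitro groups started from or were grown with. Replicates are called biological in the labels, without saying whether they were separate litters, animals or cultures, so p values measure the spread between these samples. The design asks how far the in vitro cells match their in vivo counterparts at each stage.

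Integrins are receptors made of an alpha and a beta chain that tie the cytoskeleton to the extracellular matrix, and the beta chain decides which alpha partners can reach the surface. Cadherins join neighbouring cells through calcium-dependent binding of like to like and are anchored by catenins, and claudins form the sealing strands of tight junctions. Germ cells use all 3 families, first as migrating and aggregating PGCs and later in contact with Sertoli cells. Signals are in the authors' intensity units, scaled to a common level on every array. Values were set to a floor of 30.7 units where they lay below it and log2 transformed for the fit. A gene was called, and is written as having risen or fallen, at a limma adjusted p under 0.05 and a change of at least 2-fold. Signals at or under the floor in the dimmer group make a fold a lower bound, written "at least", unless the raw mean signals gave a smaller ratio, in which case both are given. Levels are not compared between genes, since each probe set has its own scale. In bulk RNA, fewer cells of a type and less RNA per cell cannot be told apart.

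Marker genes of other cells moved with the groups. The 5 spermatid markers summed to 115452 to 126354 units in RS and 94806 to 96498 in SLC, against 67.4 to 172 in PGC. The 12 peritubular and mesenchymal markers, with Col1a1 and Acta2 among them, summed to 86127 to 86954 in SLC against 2566 to 3119 in RS, and all 12 lay above the filter level of 92.0 units on every SLC array. The 4 Leydig markers with a probe set summed to 7200.3 to 7617 in SLC and 176 to 245 in RS, where Cyp11a1 was at the floor on all arrays, and the 8 Sertoli markers with a probe set to 4464 to 4556 and 1518 to 1627. The 8 endothelial markers were no higher in SLC, at 674 to 759 against 856 to 971, and the 9 macrophage and leukocyte markers summed to 1492 to 1961 against 923 to 1141. The Sertoli and macrophage sums rested on part of each list. Of 7 tested Sertoli markers only Clu, Sox9 and Wt1 were called higher in SLC than in RS (median log2 0.42). Of 7 tested macrophage and leukocyte markers only Cd14 and Lyz2 were (median 0.09). The PGCLC arrays stood apart from each other. Germ cell markers summed to 3063, 26621 and 14993 on PGCLC replicates 1, 2 and 3, fetal gonad somatic markers to 2034, 8560.4 and 4455 and simple epithelial markers to 57590.1, 22296 and 46345, beside 30207 to 33279, 3149 to 3738 and 19805 to 20691 in PGC. The median SD of the tested members between replicates was 0.38 on the log2 scale in PGCLC and 0.20 to 0.23 in the other groups. The part of these cells in the results below was not tested.

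**Figure D1:**
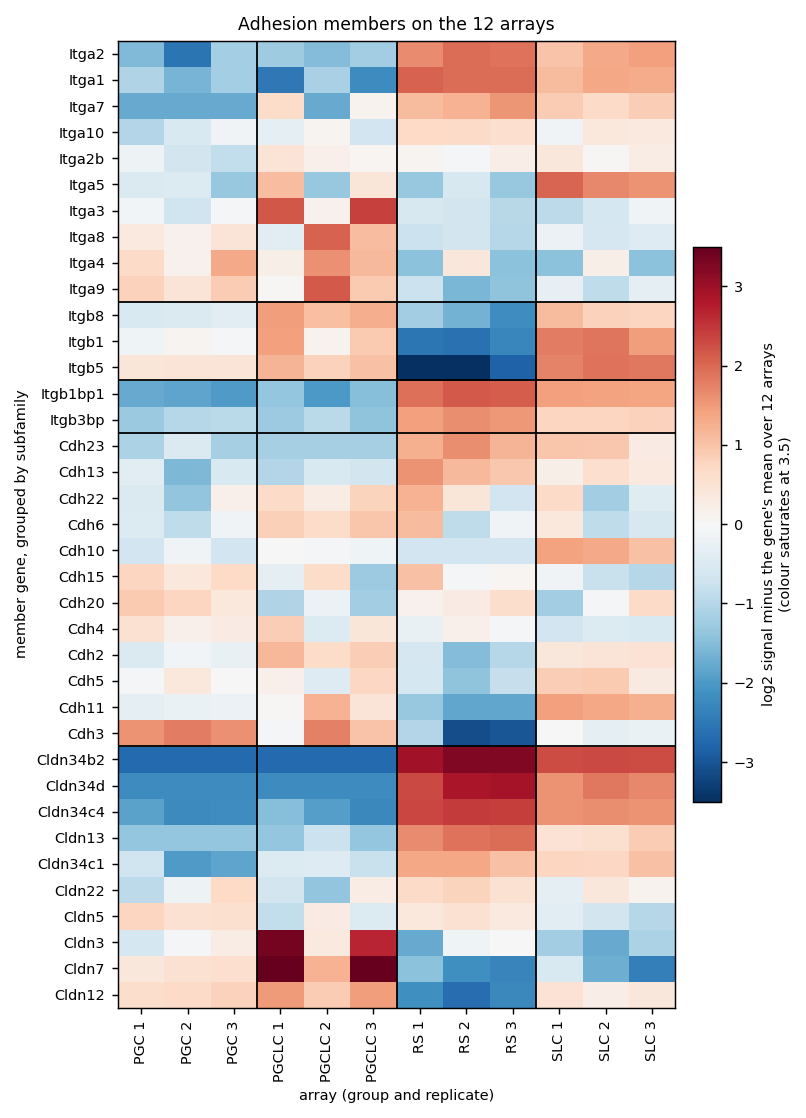
Log2 signal of the 37 tested members (rows, grouped by subfamily) on the 12 arrays (columns), each minus the gene's mean over all arrays, in colour. The X-linked claudins Cldn34b2, Cldn34c4 and Cldn34d were bright on the RS and SLC arrays, Itgb1 and Itgb5 were low on the 3 RS arrays alone, and Cldn3, Cldn7 and Itga3 were high on PGCLC replicates 1 and 3.

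In vivo, adhesion genes were called between the stages about as often as other genes. Comparisons that share arrays, as this one shares RS with SLC against RS and PGC with PGCLC against PGC, are set side by side and are not independent. Of the 37 members 13 rose from PGC to RS, which is 35.1% beside 31.5% of all genes tested, and 11 fell, 29.7% beside 37.2%. Either way 24 were called, beside 68.6% of all genes. The median change was -0.19 on the log2 scale against -0.22 for all genes. All 3 tested beta chains fell, while the alpha chains split into 4 that rose and 3 that fell, and the claudins into 5 that rose and 2 that fell. Of 12 cadherins 2 rose and 3 fell.

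Itgb1, the beta chain shared by most matrix receptors, was at 811, 967 and 858 units in PGC and 156, 147 and 185 in RS. It fell 5.41-fold with no overlap between the arrays (log2 -2.44, SE 0.26, adjusted p = 2.78e-06), and both other probe sets of the gene that passed the filter fell by more than 2-fold as well. Itgb5, which pairs with the alpha V chain to bind vitronectin, went from 1227, 1235 and 1244 to 78.1, 80.5 and 127. It fell 13.3-fold (log2 -3.73, SE 0.17, adjusted p = 1.01e-09), and its 3 other probe sets moved the same way. Itgb8, another partner of alpha V that can release active TGF-beta, fell at least 2.31-fold, from 96.4, 96.9 and 107 to 59.3, 44.5 and 15.8, and lost its call when RS replicate 3 was left out. Itgav itself, outside the rule, went from 1479 ± 64.3 to 85.3 ± 37.0 and fell 18.7-fold. Among alpha chains Itga9, Itga8 and Itga4 fell. Itga9 fell 3.90-fold, from 345, 268 and 365 to 118, 65.1 and 74.1, although its second probe set did not (log2 0.16). Itga8 fell 2.16-fold from 246 ± 27.2 to 114 ± 14.4 and Itga4, the chain of the VCAM-1 receptor, at least 2.91-fold from 143 ± 57.8 to 46.2 ± 53.4. Itga8 lost its call without any 1 of the PGC, RS or SLC arrays, and Itga4, whose arrays overlapped between the groups, without PGC replicate 1 or 3 or RS replicate 1 or 3. Both also lost it under quantile normalization and without the filter, and Itga9 lost it with the mean of its probe sets. Cerkl, which overlaps Itga4, had means under the floor, at 13.05 ± 9.94 in PGC and 16.1 ± 12.6 in RS.

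Other alpha chains were brighter in RS. Itga1, a collagen receptor chain, was at 168, 113 and 152 in PGC and 1460.2, 1342 and 1359 in RS, 9.75-fold higher with no overlap (log2 3.28, SE 0.29, adjusted p = 4.57e-07). Its second probe set stayed under the filter level and did not rise, at a mean of 40.6 units in PGC and 9.38 in RS. Pelo, a gene of ribosome rescue that overlaps Itga1 in RefSeq, was at 530.5 ± 43.9 in PGC and 384 ± 91.9 in RS. Itga2, the other collagen receptor chain of this pair, rose at least 12.2-fold from 61.7, 6.03 and 78.9 to 571, 700.2 and 678 (log2 3.61, SE 0.30, adjusted p = 2.29e-07). Itga7, a laminin receptor chain of muscle, was at the floor on all 3 PGC arrays and at 224, 243 and 304 in RS, at least 8.30-fold higher. Mettl7b, which overlaps Itga7, went from 12.7 ± 2.42 to 109.8 ± 31.3. Itga10, a further collagen receptor chain, rose at least 2.32-fold to 99.6 ± 3.67 and lost its call without PGC replicate 1 and could not be fitted without any 1 RS array. Itga2b, the platelet alpha chain, was at 131 ± 33.4 and 201 ± 22.04 (log2 0.65), under 2-fold, beside platelet markers whose sum was 222 to 407 in PGC and 536 to 775 in RS. Itga5, a fibronectin receptor chain, was at 39.6 ± 26.5 and 27.9 ± 23.8 (log2 -0.31), not called.

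Both tested genes with an integrin symbol that encode no receptor chain rose. Itgb1bp1, which encodes the integrin tail binding protein ICAP1, went from 583, 554 and 505 to 7539, 8838 and 8712, 15.3-fold up (log2 3.93, SE 0.15, adjusted p = 1.29e-10). Itgb3bp, also known as the centromere protein gene Cenpr, rose 6.03-fold from 462, 568 and 585 to 3029, 3451 and 3225. The names alone would count them with the beta chains, which all fell. Further probe sets of Itgb3bp, all under the filter, did not follow its rise, at log2 0.51, -0.77, -0.43 and 0. The array has 1 probe set for Itgb1bp1, and Cpsf3, which overlaps it, went the other way, from 5309 ± 254 to 1008 ± 71.1, as did Asap2, from 858 ± 21.2 to 62.9 ± 9.55.

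Among cadherins, Cdh3 (P-cadherin) was at 784, 904 and 791 in PGC and 128, 19.2 and 32.7 in RS. It fell 16.3-fold by the fit and 13.7-fold by mean signal, and RS replicate 1 was several times brighter than the other RS arrays. Cdh11, a cadherin of mesenchyme, fell 2.62-fold from 601, 639 and 651 to 302, 215 and 214, except under quantile normalization (log2 -0.85). Cdh5 (VE-cadherin), the junction protein of endothelium, fell 2.06-fold from 176 ± 30.0 to 86.9 ± 23.1 (log2 -1.04, SE 0.32, adjusted p = 0.00929) and lost the call without PGC replicate 2 or RS replicate 2, under quantile normalization or median centring, and with log2(value + 16) in place of the floor. Its second probe set, under the filter, went the other way, from a mean of 23.8 in PGC to 82.8 in RS. Cdh13, a cadherin held by a lipid anchor in place of a tail, rose 4.13-fold from 80.4, 35.6 and 73.5 to 314, 232 and 203, with 2 further probe sets past 2-fold in the same direction. Cdh23, known from the tip links of hair cells, rose at least 4.85-fold from 33.3 ± 14.0 to 176 ± 28.8, while Vsir, which overlaps it, went from 335 ± 17.4 to 13.3 ± 13.4, and Gm17455, which also overlaps it, from 57.8 ± 42.4 to 91.9 ± 6.01. Cdh2 (N-cadherin) was at 621 ± 83.8 and 382 ± 123 and did not pass 2-fold. Its 2 probe sets disagreed, the other going from a mean of 224 in PGC to 804 in RS.

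The largest changes of all members were those of X-linked claudins. Cldn34b2 was at 28.1, 24.8 and 29.6 in PGC, all at or under the floor, and at 1541, 1922 and 1906 in RS, at least 57.9-fold higher (log2 5.86, SE 0.14, adjusted p = 3.54e-12). Cldn34d, also at the floor in PGC, was at least 29.6-fold higher at 699, 1013 and 1063, and Cldn34c4 22.6-fold from 60.3, 47.4 and 49.1 to 1127, 1219 and 1179. Cldn34c1 rose at least 6.76-fold to 292 ± 35.5, but its second probe set did not (log2 -0.16). RefSeq lists 11 Cldn34 genes, all on the X chromosome, and a probe set may read a close copy, so the signal may not belong to the named gene alone. Cldn13, at the floor in PGC, was at least 9.04-fold higher at 245, 291 and 300.3. Cldn12, a claudin of wide expression, fell 8.35-fold from 1284, 1332 and 1456 to 188, 130.5 and 174 (log2 -3.06, SE 0.18, adjusted p = 9.63e-09), and Cldn7, an epithelial claudin, fell 5.5-fold from 230.3 ± 16.8 to 43.4 ± 14.9. Cldn5, the claudin of blood vessels, was at 341 ± 28.6 and 297 ± 18.9, and Cldn3, an epithelial claudin, at 97.7 ± 27.99 and 73.0 ± 47.0, neither called. Both other passing probe sets of Cldn3 were lower in RS by more than 2-fold (log2 -1.83 and -1.87). With the mean of its probe sets Cldn3 was called lower, so its reading here depends on the probe set.

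Sequences before the start sites are shown for Itgb1 and Itgb5, which fell here and had the largest interactions described further on, and for Cldn34b2 and Cldn34d, which had the largest rises here. They are the 250 bases before the annotated start, from RefSeq on GRCm38.p6, 5′ to 3′ on the gene's strand, with each CG dinucleotide in capitals. Beta chains Itgb1 and Itgb5:
Itgb1, chr8:128685404-128685653, plus strand: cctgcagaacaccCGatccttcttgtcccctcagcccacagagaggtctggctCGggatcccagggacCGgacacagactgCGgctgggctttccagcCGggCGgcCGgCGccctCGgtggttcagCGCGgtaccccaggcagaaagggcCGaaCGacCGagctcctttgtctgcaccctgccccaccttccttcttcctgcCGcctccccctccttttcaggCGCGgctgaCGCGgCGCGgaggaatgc
Itgb5, chr16:33829415-33829664, plus strand: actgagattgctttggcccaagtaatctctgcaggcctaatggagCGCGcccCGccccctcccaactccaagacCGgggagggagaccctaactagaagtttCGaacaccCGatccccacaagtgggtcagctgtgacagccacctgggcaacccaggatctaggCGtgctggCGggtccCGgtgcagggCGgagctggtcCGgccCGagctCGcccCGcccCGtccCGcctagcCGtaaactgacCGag
Claudins Cldn34b2 and Cldn34d:
Cldn34b2, chrX:155147850-155148099, minus strand: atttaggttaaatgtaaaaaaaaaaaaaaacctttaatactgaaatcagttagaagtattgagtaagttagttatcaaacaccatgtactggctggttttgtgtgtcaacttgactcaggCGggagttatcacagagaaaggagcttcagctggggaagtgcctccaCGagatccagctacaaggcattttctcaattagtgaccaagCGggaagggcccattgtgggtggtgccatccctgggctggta
Cldn34d, chrX:76602925-76603174, minus strand: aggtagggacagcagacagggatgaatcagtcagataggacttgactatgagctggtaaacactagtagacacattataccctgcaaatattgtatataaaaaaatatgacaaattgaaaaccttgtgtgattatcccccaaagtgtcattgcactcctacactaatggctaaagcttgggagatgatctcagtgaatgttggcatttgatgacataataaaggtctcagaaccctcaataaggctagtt
The windows of Itgb1 and Itgb5 hold 21 and 18 CG dinucleotides and those of Cldn34b2 and Cldn34d 3 and 0, beside a median of 6 over all 32851 promoter windows of this length. At most 3 were found in 37.8% of all windows and at most 18 in 80.3%. Itgb8, the other beta chain that fell, has 12. The GC box GGGCGG, on either strand and able to overlap a CG, was in the windows of Itgb1 and Itgb5, not in that of Itgb8, and in 32.7% of all windows. TATAAA, on either strand, was in the window of Cldn34d and in 12.4% of all. Over the members as groups the CG count did not part so clearly. Promoters were matched for 28 of the 37 tested members, and the median count was 10 for the 9 starts of 9 risers and 12 for the 11 starts of 8 genes that fell, with Cldn34c1, a riser, at 22.

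**Figure D2:**
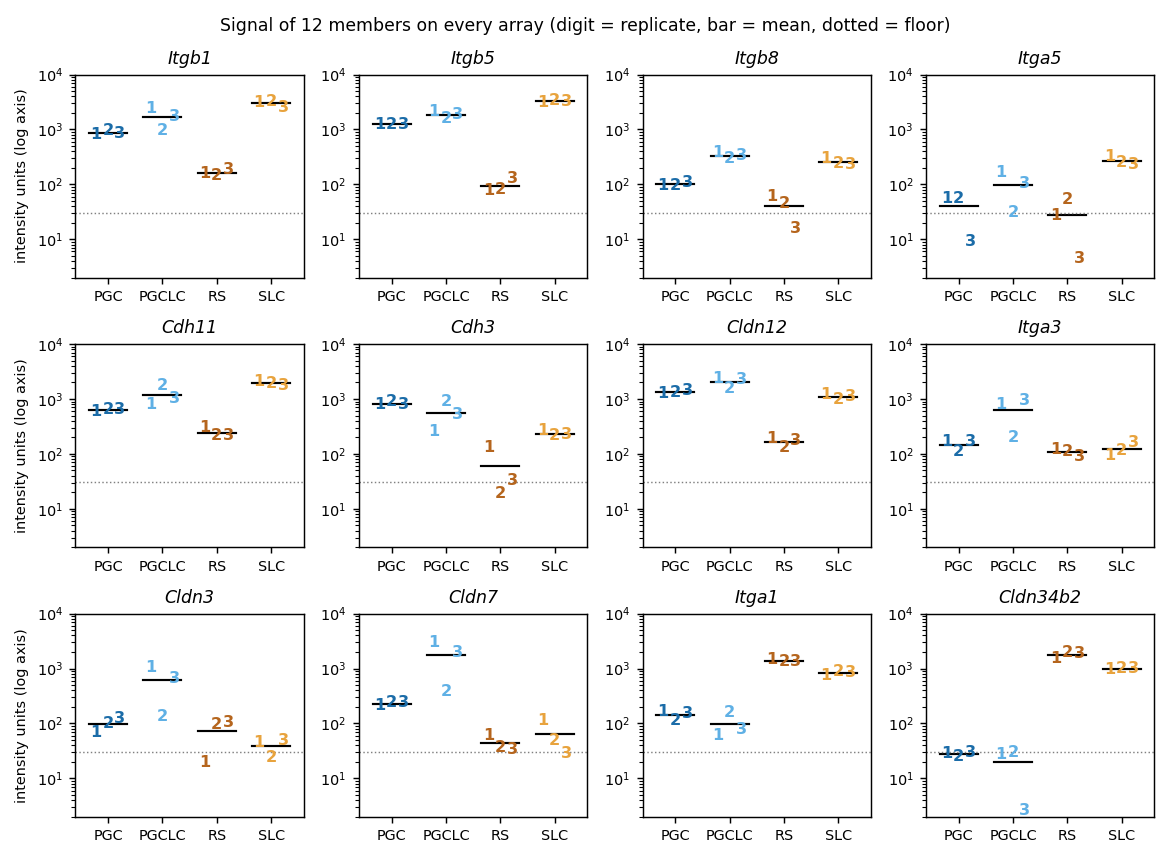
Signal of 12 members in intensity units on a log axis for the 4 groups, with each array shown as its replicate number, the group mean as a bar and the floor as a dotted line. The Itgb1 and Itgb5 arrays of RS lie below those of the other 3 groups, the Itga1 and Cldn34b2 arrays of RS and SLC lie above PGC and PGCLC, and PGCLC replicate 2 lies apart from replicates 1 and 3 for Itga3, Cldn3 and Cldn7.

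SLC carried far more signal of matrix-binding beta chains than RS. All 3 tested beta chains rose, with Itga5 among 10 alpha chains, 5 of 12 cadherins and Cldn12 among 10 claudins, while Cldn5 and Cldn13 fell. In all 10 of 37 members were higher (27.0%, beside 23.5% of all genes) and 2 lower (5.41%, beside 3.32%), in all 32.4% beside 26.8%, a share of calls near the background. The median member change was -0.46, against -0.15 for all genes. The split depended on scaling. Median centring put the all-gene median at -0.41 and gave 10 members higher and 8 lower, and quantile normalization moved it to -0.33 and gave 10 and 9. Cldn34d, Cldn34c4, Cdh13 and Cdh15 were gained as lower under both, and all 12 original calls were kept. Leaving out SLC replicate 3 left 1 lower call, because Cldn5 was lost, and Cdh10 could not be fitted without any 1 SLC array, since too few arrays then passed the filter.

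Itgb5 showed the largest rise of the members in this comparison. It was at 78.1, 80.5 and 127 on the RS arrays and 3041, 3367 and 3290.0 on the SLC arrays, 34.8-fold higher with all 3 arrays of each group apart (log2 5.12, SE 0.17, adjusted p = 5.47e-10). Its 3 further probe sets gave log2 changes of 5.48, 3.11 and 5.63. Itgb1 went from 156, 147 and 185 to 3126, 3283 and 2503, 18.2-fold up (log2 4.19, SE 0.26, adjusted p = 8.81e-08), with 2 further probe sets at 2.74 and 3.76. Itgb8 rose at least 5.95-fold from 59.3, 44.5 and 15.8 to 302, 243 and 233 (log2 2.57, SE 0.24, adjusted p = 2.84e-06). Itgav, their partner chain outside the rule, rose 35.8-fold from 85.3 ± 37.0 to 2828 ± 34.4. Itga5, which with Itgb1 forms the classical fibronectin receptor, was at 27.0, 52.0 and 4.52 in RS and 317, 248 and 229 in SLC, at least 7.15-fold higher (log2 2.84, SE 0.52, adjusted p = 0.000588). The rises of Itgb1, Itgb5, Itgb8 and Itga5 stood under all 20 alternatives, which leave out each array in turn and include a fit of the 6 RS and SLC arrays alone. The other 9 alpha chains were not called. Itga2b was at 201 ± 22.04 and 222 ± 27.7 (log2 0.14). Itga9 was at 85.6 ± 28.1 and 142 ± 30.6 (log2 0.75) and Itga1 at 1387 ± 63.8 and 834 ± 78.0 (log2 -0.74).

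Among cadherins 5 of 12 rose. Cdh11 was at 302, 215 and 214 in RS and 2067, 1941 and 1796 in SLC, 8.03-fold higher (log2 3.01, SE 0.25, adjusted p = 9.05e-07), and its second probe set rose too (log2 2.60). Cdh3 rose 4.59-fold by the fit and 3.88-fold by mean signal, from 128, 19.2 and 32.7 to 264, 213 and 223, while its second probe set was not past 2-fold (log2 0.14). Cdh5 went from 107, 61.6 and 92.3 to 297, 306 and 202, 3.11-fold up (log2 1.64, SE 0.32, adjusted p = 0.000889), beside endothelial markers whose sum was lower in SLC and of which only Cd34 was called. The second probe set of Cdh5, under the filter, did not rise (log2 -0.37). Cdh10, a type II cadherin studied mainly in brain, was at the floor on all RS arrays and at least 3.80-fold higher in SLC at 130.02, 123 and 99.5. A further probe set of Cdh10, under the filter, went the other way, from a mean of 75.6 in RS to 32.1 in SLC. Cdh2 rose 2.78-fold from 507, 261 and 377 to 987, 1024 and 1069 by its brighter probe set, but its second probe set was at log2 -0.30 and the mean of both was not called (log2 0.59), so the direction for this gene is not settled.

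Among claudins Cldn12 was at 188, 130.5 and 174 in RS and 1185, 979 and 1103 in SLC, 6.69-fold higher (log2 2.74, SE 0.18, adjusted p = 1.37e-07), with its second probe set at 2.73. Cldn13 fell 2.26-fold from 245, 291 and 300.3 to 111, 115 and 146, and Cldn5 2.14-fold from 289, 319 and 284 to 169.9, 142 and 112 (log2 -1.10, SE 0.27, adjusted p = 0.00383). The spermatid claudins Cldn34b2, Cldn34c4 and Cldn34d were at 989 ± 14.7, 666 ± 12.6 and 461 ± 46.6 in SLC, with log2 differences of -0.85, -0.82 and -0.99 from RS. On the authors' scaling these differences were under 2-fold in the fit of all 12 arrays, but Cldn34d was called lower without RS replicate 1 or SLC replicate 2. In the fit of the 6 arrays alone the limma adjusted p was 0.00019, 3.8e-05 and 0.0020 for Cldn34b2, Cldn34c4 and Cldn34d. Itgb1bp1 and Itgb3bp were likewise under 2-fold, at log2 -0.66 and -0.75. Cldn11, the claudin of the Sertoli cell barrier, did not pass the filter and was at 99.1, 78.9 and 86.6 in SLC and 75.6, 67.3 and 64.0 in RS. Cldn7 and Cldn3 were dim in both groups, at 63.4 ± 43.9 and 39.1 ± 13.5 in SLC, and were not called.

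**Figure D3:**
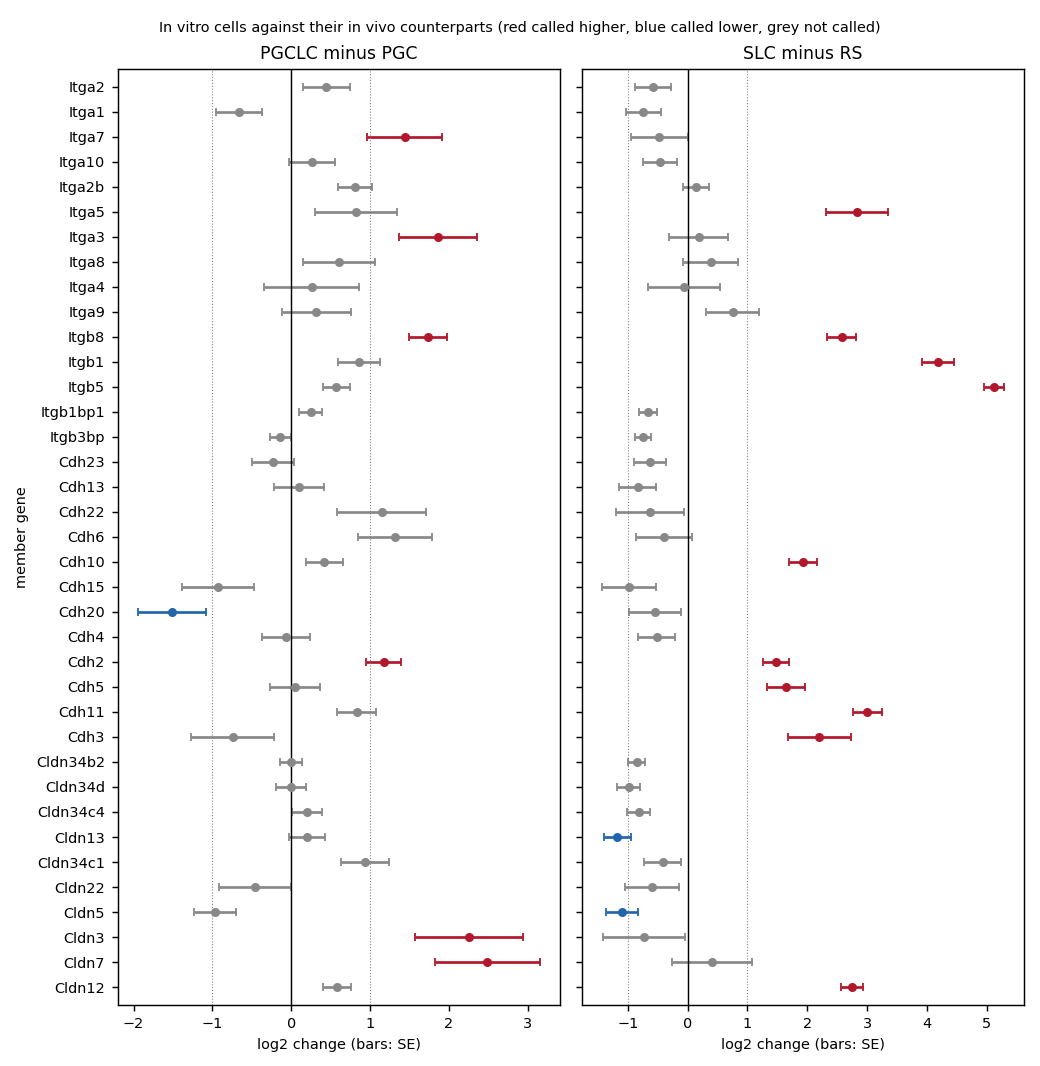
Log2 change of the 37 tested members, in rows, in PGCLC against PGC (left) and SLC against RS (right), with the SE of the fit over 12 arrays as bars, red for called higher, blue for called lower, and dotted lines at 2-fold. Itgb5 and Itgb1 have the largest rises in SLC and Cldn7 and Cldn3 in PGCLC, where their bars are wide.

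PGCLC differed from PGC in 7 members, and 4 of them, Cldn3, Cldn7, Itga3 and Itga7, had their signal mainly on PGCLC replicates 1 and 3. The epithelial claudins Cldn7 and Cldn3, the integrin chains Itga3, Itga7 and Itgb8, and Cdh2 rose, and Cdh20 fell. That is 6 of 37 higher (16.2%, beside 10.3% of all genes) and 1 lower (2.70%, beside 1.60%), with a median change of 0.32 against 0.01. In a fit of the 6 arrays alone, 2 of the 7 calls were kept, Itgb8 (adjusted p = 0.0358) and Cdh2 (adjusted p = 0.0492). The adjusted p was then 0.115 for Cldn7, 0.139 for Cldn3, 0.131 for Itga3, 0.185 for Itga7 and 0.0668 for Cdh20. The number higher was 2 without PGC replicate 2 and also without PGCLC replicate 3. Cdh20 lost its call without PGC replicate 1 or 2 or PGCLC replicate 1 or 3. Cldn7 lost its call without each of the same 4 arrays, Cldn3 without these or PGC replicate 3, and Itga3 without PGC replicate 2 or PGCLC replicate 1 or 3. Without PGCLC replicate 2, 9 members were higher and 4 lower, the 7 first calls among them, with Itga5, Itgb1 and Cdh6 gained as higher and Itga1, Cldn5 and Cdh15 as lower. Median centring put the all-gene median at -0.30 and gave 4 higher and 3 lower, and quantile normalization gave 4 and 2. Cldn3 lost its call under quantile normalization and without the filter.

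Itgb8 was the steadiest of these. It was at 96.4, 96.9 and 107 in PGC and 379, 290.0 and 334 in PGCLC, 3.33-fold higher with no overlap (log2 1.73, SE 0.24, adjusted p = 0.0012), and stayed called under all 20 alternatives. Cdh2 went from 534, 702 and 627 to 1689, 1174 and 1360.1, 2.25-fold up (log2 1.17, SE 0.22, adjusted p = 0.00433), and its second probe set rose by a similar amount (log2 0.97). It lost its call under median centring alone. Itgb1 and Itgb5 were higher on every PGCLC array than on any PGC array but under 2-fold. Itgb1 was at 2429, 977 and 1704 in PGCLC (log2 0.86) and Itgb5 at 2083, 1599.5 and 1860.3 (log2 0.57). Itga5 was at 162, 30.6 and 104 (log2 0.83), Itga2b at 265, 214 and 198 (log2 0.81) and Cdh5 at 185, 118 and 269 (log2 0.05), none of them called. Itgav rose 2.51-fold from 1479 ± 64.3 to 3936 ± 1536.

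Cldn7 was at 211, 236 and 244 in PGC and at 2994, 374 and 1924 on PGCLC replicates 1, 2 and 3. The fitted rise was 5.62-fold (log2 2.49, SE 0.67, adjusted p = 0.0189), and 10.4-fold without replicate 2, the lowest array, which still lay above every PGC array. Cldn3 had the same order, 1056, 133 and 659 against 68.2, 101 and 124 in PGC, with a rise of 4.77-fold and of 8.80-fold without replicate 2. Both of its other passing probe sets rose as well, at log2 1.87 and 1.99. Itga3, a laminin receptor chain of epithelium, was at 802, 196 and 929 in PGCLC and 165, 109 and 168 in PGC, up 3.64-fold, or 5.97-fold without replicate 2. Itga7 was at 164, 6.84 and 115, with replicate 2 at the floor like all PGC arrays, and lost its call under 16 of 20 alternatives. Cdh20, a type II cadherin, went from 135, 122 and 93.3 to 34.4, 62.4 and 20.6 and fell at least 2.85-fold. The simple epithelial marker sum had the order of Cldn7, Cldn3 and Itga7, highest on replicate 1 and lowest on replicate 2. The macrophage and leukocyte marker sum had this order too, while Itga3 was highest on replicate 3.

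The start site sequences of both epithelial claudins are given because these genes had the largest rises in PGCLC, in the same form. RefSeq gives 2 starts for Cldn7:
Cldn3, chr5:134985964-134986213, plus strand: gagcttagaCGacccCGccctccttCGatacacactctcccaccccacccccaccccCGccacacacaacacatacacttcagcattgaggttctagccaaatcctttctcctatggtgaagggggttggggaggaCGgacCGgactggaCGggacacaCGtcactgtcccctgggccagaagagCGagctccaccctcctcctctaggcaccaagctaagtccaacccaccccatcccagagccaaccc
Cldn7, chr11:69964529-69964778, plus strand: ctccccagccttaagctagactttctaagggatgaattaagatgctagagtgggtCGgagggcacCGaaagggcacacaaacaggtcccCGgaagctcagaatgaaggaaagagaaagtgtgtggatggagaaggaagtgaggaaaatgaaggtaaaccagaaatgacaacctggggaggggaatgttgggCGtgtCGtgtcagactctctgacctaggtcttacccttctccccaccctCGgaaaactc
Cldn7, chr11:69965171-69965420, plus strand: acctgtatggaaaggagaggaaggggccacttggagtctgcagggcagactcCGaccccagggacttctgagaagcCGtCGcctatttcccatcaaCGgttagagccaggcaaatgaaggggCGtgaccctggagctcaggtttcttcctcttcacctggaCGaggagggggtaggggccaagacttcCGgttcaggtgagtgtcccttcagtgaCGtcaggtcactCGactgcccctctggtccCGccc
They hold 9, 6 and 10 CG dinucleotides, between the beta chain and spermatid claudin windows. The second Cldn7 window contains the palindrome TGACGTCA, the letters of the cAMP response element, which is in 1.55% of all windows, and it also contains a GC box, as does that of Cldn3. Such matches describe letters in a window only.

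Other members ran against that order. Itga8 was at 150.04, 821 and 419 on PGCLC replicates 1, 2 and 3 beside 249, 218 and 272 in PGC, and Itga9 at 203, 876 and 370.5 beside 345, 268 and 365. Replicate 2 was the highest array of the series for both, and replicate 1 lay below all PGC arrays. Cdh11 was at 778, 1759 and 1029 (log2 0.83) and Cdh3 at 256, 892 and 524 (log2 -0.74), also highest on replicate 2. The germ cell, fetal gonad somatic, Sertoli, Leydig, mesenchymal, endothelial and spermatid marker sums were highest on that array too. The part of these cells was not tested. Of the 37 members 18 had PGCLC arrays at least 2-fold apart, with replicate 2 the highest for 9 of them and the lowest for the other 9. The wider spread of the PGCLC arrays was not particular to members. Over all genes tested the median SD on the log2 scale was 0.30 in PGCLC and 0.13 to 0.17 in the other groups. Cldn5 was at 122, 272 and 160.2 against 374, 322 and 326 in PGC (log2 -0.96), just under 2-fold. The means of these genes therefore average unlike arrays.

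**Figure D4:**
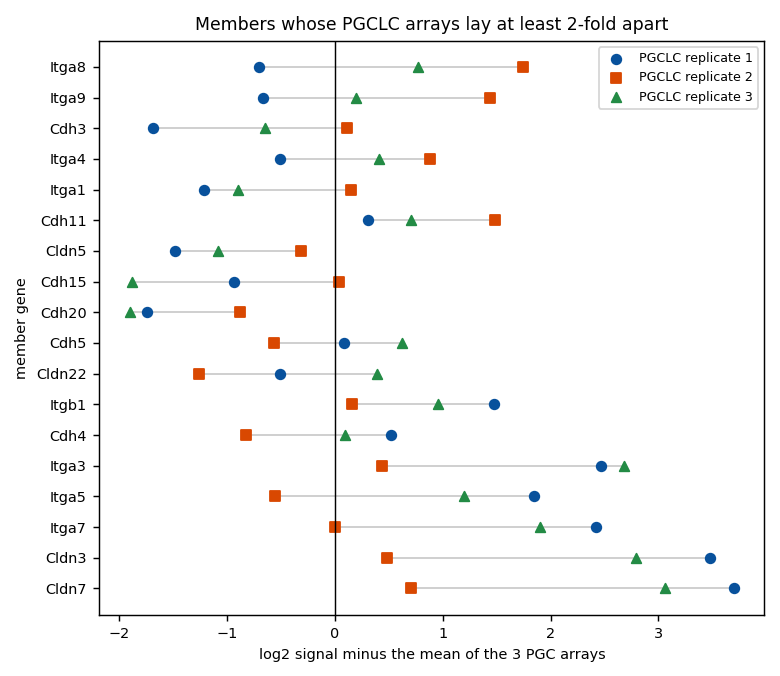
Log2 signal on PGCLC replicates 1 (circle), 2 (square) and 3 (triangle) minus the mean of the 3 PGC arrays (vertical line at 0), for the 18 members whose PGCLC arrays lay at least 2-fold apart. Replicate 2 is the lowest for Cldn7, Cldn3, Itga7, Itga5 and Itga3 and the highest for Itga8, Itga9 and Cdh3.

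The in vitro stages, SLC against PGCLC, share no arrays with RS against PGC, so both changes can be set side by side and their difference tested. In vitro 14 members were higher in SLC (37.8%, beside 29.4% of all genes) and 7 lower (18.9%, beside 26.9%), together 56.8% beside 56.3%. Itga10, which rose from PGC to RS, was not called here (log2 0.49). Cldn34b2 rose at least 32.2-fold in vitro, Cldn34d at least 14.9-fold, Cldn34c4 11.1-fold, Itga1 9.21-fold, Itga2 6.00-fold, Itgb1bp1 8.14-fold and Itgb3bp 3.95-fold. Further probe sets of Itgb3bp, all under the filter, went the other way, at log2 -0.43, -0.40, -0.72 and -0.67. Cdh23, Cdh13, Cldn13 and Cldn34c1 rose by at least 3.67-fold, 2.16-fold, at least 3.48-fold and 2.65-fold. Cdh10 rose 2.49-fold, and Itga5 3.27-fold by the fit and 2.68-fold by mean signal. Further probe sets of Itga5, all under the filter, were at log2 0.89, -0.04 and -0.03. Itga7 also passed, at 2.20-fold by the fit and 1.93-fold by mean signal, but lost its call under 14 of 20 alternatives. The largest falls were Cldn7, at least 23.2-fold from 1764 ± 1317 to 63.4 ± 43.9, and Cldn3, at least 11.1-fold from 616 ± 463 to 39.1 ± 13.5, followed by Itga3 (4.33-fold), Itga4 (at least 3.63-fold), Itga9 (2.89-fold), and Itga8 (2.52-fold). Cdh6 fell 2.27-fold by the fit and 2.15-fold by mean signal. All 8 simple epithelial markers fell too, their sum going from 22296 to 57590.1 in PGCLC to 1737 to 1908 in SLC, beside 3088 to 3320.2 in RS, and their part in the fall of Cldn7, Cldn3 and Itga3 was not tested. Itga8 and Itga9 lost their calls without PGCLC replicate 2, Itga8 also without PGCLC replicate 3 or SLC replicate 2, Itga4 without SLC replicate 1 or 3, Cdh13 without PGCLC replicate 1, and Cdh6 without PGC replicate 1 or SLC replicate 2 or 3. Other settings ended calls too. Cldn34c1, whose second probe set was at log2 -0.41, Cdh13 and Itga9 lost theirs with the mean of a gene's probe sets, at log2 0.50, 0.73 and -0.91. Cdh13 and Cdh6 lost theirs with log2(value + 16), Cdh6 also under quantile normalization, and Itga8 in the fit of 6 arrays. With PGCLC replicate 1 alone kept, Cdh6, Itga4, Itga5, Itga8 and Itga9 lost theirs. The fitted probe set of Cdh6 was not its brightest, which did not pass the filter. Landmark members without a call were Cdh2 (log2 -0.44), Cdh5 (0.55), Cdh11 (0.79), Cldn5 (-0.33) and Itga2b (-0.02), and Itgav, outside the rule, was at -0.39.

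Itgb1 and Itgb5 changed differently in the 2 systems. Itgb1, Itgb5 and Itgb8 fell in vivo, and in vitro none of them was called, with log2 changes of 0.89, 0.81 and -0.37. Itgb1 passed 2-fold only without PGCLC replicate 1 or SLC replicate 3. The interaction, the in vitro change minus the in vivo change, was called for 13 of 37 members (35.1%, beside 31.7% of all genes), 8 higher and 5 lower. Itgb5 had the largest, 4.55 (adjusted p = 8.33e-08), then Itgb1 at 3.32 (adjusted p = 2.86e-05), while Itgb8, at 0.84, did not pass (adjusted p = 0.0601). Cdh3, Cdh11, Cdh5, Cdh10, Cldn12 and Itga5 were the others with a higher value, and Cldn3, Itga7, Cldn13, Cldn34c1 and Cldn34c4 had a lower one. Probe sets under the filter went the other way for Cdh5 (-0.78) and Cdh10 (-1.25), and the second passing probe set of Cdh3 was at 0.69. Those of Itga5 under the filter were at 0.89, -0.34 and 0.09. Some of the called interactions rested on single arrays. Among the fits without 1 array, Itga7 kept its call only without PGCLC replicate 2 or RS replicate 1, and Itga5 lost its call without PGC replicate 1 or 2, RS replicate 1 or 3, or any 1 SLC array. Cldn3 lost its call without PGC replicate 1, PGCLC replicate 3, RS replicate 2 or 3, or SLC replicate 2. Cldn34c1 and Cldn34c4 lost theirs without PGC replicate 2 or 3, the first also without SLC replicate 2 and the second without PGCLC replicate 1 or RS replicate 2. With log2(value + 16) in place of the floor Cldn13, Cldn34c1, Cldn34c4, Itga5 and Itga7 lost theirs, Cldn34c1 also with the mean of its probe sets, Cldn34c4 under quantile normalization or median centring, and Itga5 and Itga7 without the filter. Without PGCLC replicate 2 Cldn7, Itga3, Itga2 and Itgb1bp1 were gained as lower. Itgav, outside the rule, was at 3.83 (adjusted p = 7.03e-05), and Cdh2, Cldn5 and Itga2b were at 0.30, -0.13 and -0.67, not called. Cldn7 and Itga3 fell in vitro and did not pass the interaction (adjusted p = 0.09 and 0.0646).

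**Figure D5:**
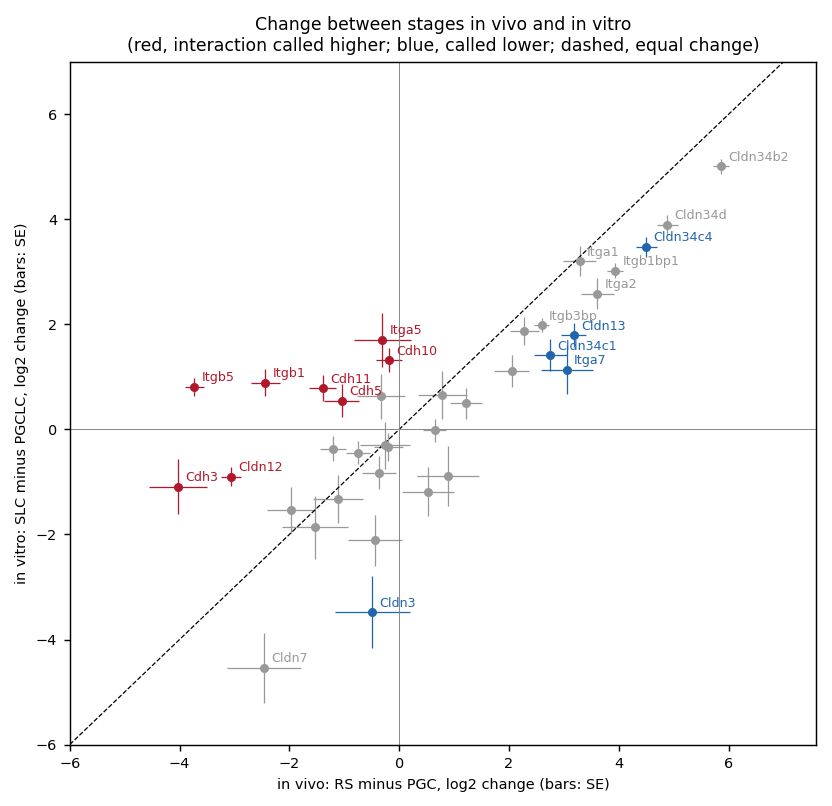
Log2 change from PGC to RS in vivo (horizontal) and from PGCLC to SLC in vitro (vertical) for the 37 tested members, with SE as bars and a dashed line of equal change. Genes with a called interaction are red where it was higher and blue where it was lower, and Itgb5, Itgb1 and Cdh3 lie well above the line.

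The molecules that adhesion receptors work with were read from lists of partners. These lists were chosen with earlier results of these data known, so the shares below describe the lists only. All 12 peritubular and mesenchymal markers rose in SLC against RS too, and the part of such cells was not tested. Of 17 tested integrin ligands, matrix proteins and counter-receptors, 12 rose in SLC against RS, 70.6% beside 23.5% of all genes, with a median change of 3.73 beside -0.15 for all genes. Thbs1, a matrix glycoprotein, rose at least 224-fold to 8554 ± 527 and Nid1, a basement membrane linker, 84.2-fold to 6641 ± 434. In RS against PGC 3 rose and 8 fell (17.6% and 47.1%, beside 31.5% and 37.2%), with Lamb1 and Fn1, which encode a laminin chain and fibronectin, down 15.4-fold and 14.6-fold. In PGCLC 10 of 17 rose (58.8%, beside 10.3%), Thbs1 by 7.29-fold and Lama5, a laminin chain, by 4.27-fold. In SLC against PGCLC 8 rose and 3 fell (47.1% and 17.6%, beside 29.4% and 26.9%), with Tnc, the tenascin C gene, up 20.8-fold. Of 21 cytoplasmic adaptors of integrin tails 12 rose in SLC against RS (57.1%, beside 23.5%), among them Parva (at least 39.7-fold) and Actn1 (29.4-fold). In PGCLC against PGC 5 rose (23.8%, beside 10.3%), Parva by 4.86-fold. In RS against PGC 6 rose and 10 fell (28.6% and 47.6%, beside 31.5% and 37.2%). Actn1 fell 20.0-fold there, but Tns1, a tensin, rose 93.1-fold by the fit and 81.8-fold by mean signal to 6431 ± 606. In SLC against PGCLC 8 rose (38.1%, beside 29.4%) and 1, the kindlin gene Fermt3, fell at least 11.5-fold.

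Of 16 tested catenins and their relatives 4 rose in SLC against RS, 25% beside 23.5% of all genes, Ctnna1 by 6.39-fold and Ctnnb1, the beta-catenin gene, by 5.23-fold. From PGC to RS 5 rose and 7 fell (31.2% and 43.8%, beside 31.5% and 37.2%), with Ctnna3, the alpha-T-catenin gene, up at least 93.4-fold to 3146 ± 213 and Pkp2, a plakophilin, down 38.9-fold. In SLC against PGCLC 4 rose and 8 fell (25% and 50%, beside 29.4% and 26.9%). In PGCLC against PGC 5 rose (31.2%, beside 10.3%), Pkp3 by at least 7.10-fold and Nectin2 by 2.81-fold. Of 17 other tight junction genes 11 were lower and 1 was higher in SLC than in PGCLC (64.7% and 5.88%, beside 26.9% and 29.4% of all genes), with Pard6b down 13.2-fold and Tjp3 6.35-fold. The simple epithelial markers fell in the same comparison, as given above. In PGCLC against PGC 4 rose (23.5%, beside 10.3%), Jam2 by 8.98-fold and Cgnl1 by 4.55-fold. In RS against PGC 4 rose and 8 fell (23.5% and 47.1%, beside 31.5% and 37.2%), F11r, the JAM-A gene, by 23.5-fold. In SLC against RS 4 rose and 1 fell (23.5% and 5.88%, beside 23.5% and 3.32%), F11r going up 7.26-fold.

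The 26 members below the filter were not read for change in the main fit. They were 12 claudins, 8 cadherins, 5 integrin beta chains and Itgb1bp2. None exceeded 92.0 units on 3 arrays, and the highest single value was 196 for Cldn23. In the fit without the filter Cdh26, Cdh9, Cldn2 and Itgb2l were called higher and Cldn9 lower in RS against PGC. Cldn2 and Itgb2l were called lower in SLC against RS, and Itgb4 higher in PGCLC against PGC. In SLC against PGCLC Cdh9 was called higher, and Cldn23, Itgb4 and Itgb7 lower. The interaction was called lower for Cldn2, Itgb2l and Itgb4. Members just short of the filter, with 2 arrays above it, were Cldn23, Itgb4, Itgb7, Itgb2l, Cdh16, Cdh26 and Cldn9, while those just inside it included Cdh10, Itga10 and Cdh6. Itgb4, the hemidesmosome beta chain, was at 149, 59.6 and 128 on the PGCLC arrays, Itgb7 at 166, 47.0 and 122 and Cldn23 at 196, 21.6 and 118, each lowest on replicate 2. The simple epithelial marker sum was lowest there too (57590.1, 22296 and 46345, beside 19805 to 20691 in PGC). So were the macrophage and leukocyte sum (2539.7, 973 and 1975, beside 429.9 to 528 in PGC) and the platelet sum. Itgb2, the beta chain of leukocytes, reached 97.4 at most, on an SLC array. Itgam, a leukocyte alpha chain outside the rule, did not pass the filter either. Tested members that were not called in any of the 5 comparisons were Cdh4, Cdh15, Cdh22, Cldn22 and Itga2b.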

How the data were processed

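The authors deposited intensity values per probe set, made with MAS5 per the submitters' processing notes, with the version not given in the sources used here. Their 2% trimmed mean was 500.0 on every array, so arrays had been scaled alike, without log or quantile steps. The number of arrays limits the precision. From the 45101 probe sets, 64 controls, 932 with several symbols and 9160 with none were left out, and 34741 were matched to RefSeq symbols by Entrez identifier. Values under the 25th percentile, 30.7 units, were set to it. Probe sets above the median, 92.0, on at least 3 arrays were kept, the brightest per gene. All 12 arrays entered a single fit (limma 3.58.1, R 4.3.3, eBayes with trend) of 4 group means, so the spread of the PGCLC arrays enters every SE. The Benjamini-Hochberg adjustment ran over 14197 genes. The fit was tested on simulated data. Every called member is named, with the 2 largest changes of each subfamily and 12 landmark genes, and so are genes measured on the array that overlap a called member in RefSeq. Members and lists were chosen with earlier results of these data known. Equal replicate numbers did not pair arrays. Partner lists hold 4 sets and marker lists 10.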

Additional observations from a re-analysis of the deposited data

Results flagged for a closer look

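The change between stages differed in vitro and in vivo for 13 adhesion members by the limma interaction term, which sets the log2 change from PGCLC to SLC against that from PGC to RS. It was higher in vitro for Itgb5 (4.55), Itgb1 (3.32), Cdh3 (2.94), Cdh11 (2.17), Cldn12 (2.16), Itga5 (2.01), Cdh5 (1.59) and Cdh10 (1.51). It was lower for Cldn3 (-2.98), Itga7 (-1.91), Cldn13 (-1.38), Cldn34c1 (-1.35) and Cldn34c4 (-1.02). Of all genes tested, 31.7% were called in this comparison. Of the 13 calls, 7 were kept under every alternative that could be fitted, those of Itgb5, Itgb1, Cdh3, Cdh11, Cldn12, Cdh5 and Cdh10.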

How the results depend on the processing

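Counts of called members were recomputed under 20 alternatives, 12 of them leaving out an array, and the cause of each change was not tested. In SLC against RS the number higher stayed within 9 to 10 in all of them, and the number lower, 2, was 4 without the filter, 9 with quantile normalization, 8 with median centring and 4 with the mean of a gene's probe sets, and 1 to 3 without an array. In RS against PGC the number higher was 12 to 17 and the number lower, 11, was 7 with quantile normalization and 8 to 11 without an array. In SLC against PGCLC 12 to 15 were higher and 5 to 10 lower. In PGCLC against PGC the number higher, 6, was 2 in the fit of 6 arrays and 2 to 9 without an array, and the number lower, 1, was 2 with quantile normalization, 3 with median centring, 0 in the fit of 6 arrays, 0 to 4 without an array and 3 with PGCLC replicate 1 alone kept, which was added after seeing the data. The interaction, called for 13, had 8 with log2(value + 16) in place of the floor and 9 to 17 without an array.

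With the replicate number as a block the counts were 7 higher and 1 lower in PGCLC against PGC. Interaction calls were 7 higher and 6 lower, since Itga5 lost its call and Cdh6 gained one. The other counts were the same as without the block. Replicate numbers did not pair the samples, since deviations of same-numbered arrays correlated at -0.02 to 0.13. Direction changed only for members that were not called. Cdh5 in PGCLC against PGC was at -0.21 with quantile normalization, -0.26 with median centring and -0.24 to 0.35 without an array. Itga2b in SLC against RS was at -0.45 and -0.12 under these, and in SLC against PGCLC at 0.055 and 0.076 and at -0.11 to 0.10 without an array. Cldn5 in RS against PGC was at 0.27 with quantile normalization. Cldn3 there, by its fitted probe set, was at -0.82 to 0.0736 without an array, and it was called lower with the mean of its probe sets. With the mean of a gene's probe sets Cdh2 was at 0.56 in RS against PGC and 0.081 in SLC against PGCLC, and Itgav at 0.011 in the latter. With PGCLC replicate 1 alone kept, Cldn5 was at 0.19 in SLC against PGCLC. Calls kept under every alternative that could be fitted were 10 of 12 in SLC against RS, 17 of 24 in RS against PGC, 13 of 21 in SLC against PGCLC, 7 of 13 interactions and 1 of 7 in PGCLC against PGC. Cdh10, counted among these, had 17 such alternatives or fewer, since it did not pass the filter without any 1 SLC array, and other dim members also lacked a value in some fits. Detection calls were not used here, so signal over background is not known for single values.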
